A study of Mus musculus with 48 samples.

Results

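The comparison described here sets the first 4 h of light late in the night against the first 4 h of light in the evening, in the pars tuberalis of mice that had lived on short days. It uses 16 of the 48 expression arrays of the series, 8 groups of 2 arrays each, chosen by their lighting condition and time label. In the advance groups mice were sampled at ZT20, after 4 h of light, and at ZT16, the moment those lights came on. In the delay groups, whose labels give a time but no day, mice were sampled at ZT12, after 4 h of light kept on past the usual dusk, and at ZT8, when the lights would otherwise have gone off. The short-day groups, with 8 h of light a day, were sampled at ZT20, ZT16, ZT12 and ZT8. ZT counts hours from lights-on of the short-day cycle. All mice were male CBA/N and had first lived on short days for 3 weeks. They were aged 6 weeks in the advance and delay groups and 8 weeks in the short-day groups. The short-day groups were still on short days when sampled. Age, any longer time on short days and group cannot be told apart in any single comparison of a lit with a short-day group. Each array measured RNA from 1 pool of 25 mice, cut as a punch with a needle of 0.5 mm from a slice 0.5 mm thick. The 2 arrays of a group come from repeats of the whole procedure, per the design text, so p-values measure the spread between pooled samples, not between animals.

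The pars tuberalis surrounds the pituitary stalk and carries melatonin receptors, through which it reads the length of the night. Melatonin, a hormone of darkness, lowers cyclic AMP in these cells, and nocturnal light cuts its secretion short. On long days the tissue makes more thyrotropin, the hormone built from the Tshb and Cga subunits, under the transcriptional coactivator Eya3, and thyrotropin then raises the thyroid hormone activating enzyme Dio2 in the neighbouring hypothalamus. Light at night can reset a clock in either direction, forward late in the night and backward in the evening, and the design samples the tissue after light of each kind.

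All values are log2 levels of RNA for 18194 genes. The late-night response is the change between ZT16 and ZT20 in advance minus the same change under short days, and the evening response is the change between ZT8 and ZT12 in delay minus the same change under short days. The quantity tested is the late-night response minus the evening response. A gene passed at an adjusted p below 0.05 in limma, with Benjamini-Hochberg adjustment over all genes. In all, 29 genes passed (0.159% of genes), 15 of them higher (0.0824%) and 14 lower (0.0769%), and 1893 had an unadjusted p under 0.05 (10.4%). Leaving out 1 array at a time gave between 10 and 111 genes. The median of this difference over all genes was -0.11, so most genes lay slightly below 0. With each array centred on its median, which moved the median of all genes to 0.02, 30 genes passed, 22 higher and 8 lower, and 23 were shared with the 29. With quantile normalization repeated it was 29 genes, 21 higher and 8 lower, with 22 shared. The sign of the difference was the same for all 29 genes under both scalings.

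**Figure D1:**
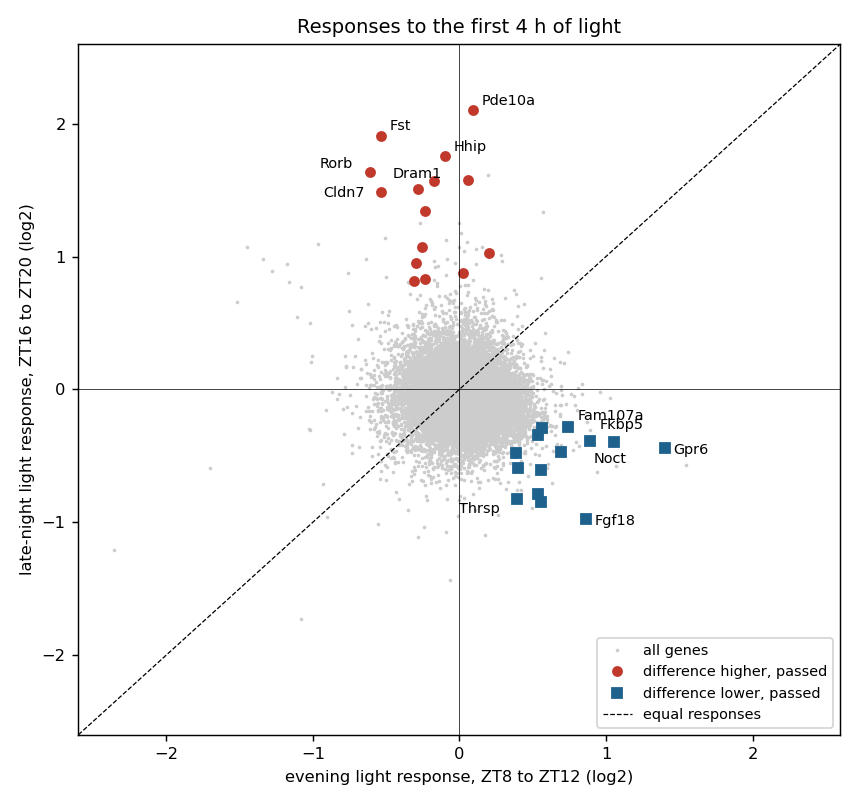
Each point is 1 of 18194 genes, with the evening response (log2) on the horizontal axis, the late-night response (log2) on the vertical axis and a dashed line where both are equal. The 15 genes with a higher difference (red circles) have late-night responses between 0.82 and 2.10 and evening responses between -0.61 and 0.20, and the 14 with a lower difference (blue squares) have late-night responses below 0 and evening responses above 0.

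The 15 higher genes rose after lights-on late in the night, whereas none of them passed in the evening, where their responses lay between -0.61 and 0.20. They include the nuclear receptor gene Rorb, the hedgehog-binding protein gene Hhip, the cyclic nucleotide phosphodiesterase gene Pde10a, the cyclic AMP response factor gene Crem and the activin-binding follistatin gene Fst. The differences ran from 1.78-fold for Nrp2, a neuropilin co-receptor, to 5.46-fold for Fst, with a median of 1.57 on the log2 scale. All 15 passed the late-night response, which called 40 genes of all (33 higher, 0.181%), and 0 of 15 passed the evening response, which called 7 genes, all higher (0.0385%). Both advance ZT20 arrays stood above the other 14 arrays for all 15 genes, which held for 4.06% of all genes. Over all 24 groups of the series, which include 2 weeks of long days, advance ZT20 had the highest mean for all 15 (4.82% of all genes). The difference contains both responses, so these counts describe the genes and are not a separate test.

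The octamer TGACGTCA is the cyclic AMP response element to which Crem and its relatives bind, and 3 of the 29 genes held it in the promoter sequences matched here. Promoters of 250 bases before to 50 bases after the start, from RefSeq on GRCm38.p6, were matched by symbol for 12 of the 15 higher and 12 of the 14 lower genes. The octamer was in 2 of the 12 higher (Hhip and Cldn7, a tight junction claudin) and 1 of the 12 lower (Gpr6, a receptor that signals through cyclic AMP). It was in 2.03% of all genes with a promoter, where a gene counts if any of its promoters holds the letters. Hhip and Cldn7 have 2 of the 5 largest positive differences among the 29 and Gpr6 the largest negative one. The 3 sequences are shown because they hold the octamer, given in capitals. It lies 75 bases before the start at Hhip (chr8:80057959-80058258, minus strand), 38 at Cldn7 (chr11:69965171-69965470, plus strand) and 78 at Gpr6 (chr10:41072241-41072540, minus strand).
Hhip: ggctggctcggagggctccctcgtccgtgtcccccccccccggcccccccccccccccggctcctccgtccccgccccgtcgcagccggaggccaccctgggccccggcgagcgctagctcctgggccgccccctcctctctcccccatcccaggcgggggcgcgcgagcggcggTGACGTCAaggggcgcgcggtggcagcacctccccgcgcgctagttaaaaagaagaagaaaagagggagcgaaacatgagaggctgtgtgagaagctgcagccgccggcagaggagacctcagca
Cldn7: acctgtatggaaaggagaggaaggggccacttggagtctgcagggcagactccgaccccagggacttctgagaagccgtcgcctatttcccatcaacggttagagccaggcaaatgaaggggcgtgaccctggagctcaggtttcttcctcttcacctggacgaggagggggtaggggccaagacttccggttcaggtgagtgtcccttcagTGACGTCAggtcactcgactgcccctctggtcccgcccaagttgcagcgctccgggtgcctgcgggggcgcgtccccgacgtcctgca
Gpr6: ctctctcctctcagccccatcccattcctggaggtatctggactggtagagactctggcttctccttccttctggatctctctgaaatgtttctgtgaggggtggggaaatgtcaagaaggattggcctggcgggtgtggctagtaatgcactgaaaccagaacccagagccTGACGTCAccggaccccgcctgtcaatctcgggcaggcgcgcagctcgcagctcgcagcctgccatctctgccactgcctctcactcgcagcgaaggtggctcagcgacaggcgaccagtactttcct
The octamer is its own reverse complement, so 1 site serves both strands. Its first 5 letters, TGACG, searched on both strands and contained in every octamer, were in 3 of the 12 higher, 5 of the 12 lower and 23.0% of all genes with a promoter. The E-box CACGTG, a site of clock proteins, was in 0 of the 12 higher, 2 of the 12 lower (Cracdl and Fkbp5) and 8.09% of all genes with a promoter. The D-box TTATGTAA was in 0 of either and 1.11% of all genes with a promoter. A match is a description of these letters and not a measured site.

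Transcription factors and cyclic nucleotide signalling genes were among the higher genes. Rorb, a retinoic acid receptor-related orphan receptor gene, read 10.27 and 10.81 on the advance ZT20 arrays and 9.12 and 9.01 on the advance ZT16 arrays, and 9.30 and 9.09 at delay ZT12 and 9.34 and 9.55 at delay ZT8. For Rorb, short-day arrays read 8.94 and 8.96 at ZT20, 9.15 and 9.07 at ZT16, 9.41 and 9.30 at ZT12 and 8.93 and 9.06 at ZT8. The advance ZT20 arrays lay above all others, and the delay ZT12 arrays lay below the delay ZT8 arrays. Rorb was 4.75-fold higher after late-night than after evening light (log2 2.25 ± 0.29 SE, adjusted p = 4.28e-05 in limma). Its response was 1.64 ± 0.20 late in the night and -0.61 ± 0.20 in the evening (adjusted p = 0.627). Probe sets not chosen for the gene gave 1.55 and 2.55 for Rorb.

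Pde10a, whose enzyme degrades cyclic AMP and cyclic GMP, read 11.49 and 11.43 on the advance ZT20 arrays and 9.24 and 9.36 on the advance ZT16 arrays, and 9.65 and 9.74 at delay ZT12 and 9.38 and 9.62 at delay ZT8. For Pde10a, short-day arrays read 9.21 and 9.22 at ZT20, 9.42 and 8.89 at ZT16, 9.39 and 9.75 at ZT12 and 9.43 and 9.50 at ZT8. The other 14 arrays lay between 8.89 and 9.75, and both advance ZT20 arrays stood clear of them. Pde10a differed by 2.01 ± 0.34 (4.03-fold, adjusted p = 0.00349), of which 2.10 ± 0.24 was the late-night response and 0.09 ± 0.24 the evening response. Of 18 phosphodiesterase genes measured Pde10a was the 1 that passed, and Pde4d came next at 0.36 ± 0.17 (adjusted p = 0.463). The other 4 probe sets of Pde10a gave 2.25, 1.53, 1.24 and 0.36.

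Crem, the cyclic AMP responsive element modulator, read 10.16 and 10.69 on the advance ZT20 arrays and 9.14 and 9.29 on the advance ZT16 arrays, and 9.42 and 9.02 at delay ZT12 and 8.69 and 8.63 at delay ZT8. For Crem, short-day arrays read 8.76 and 8.73 at ZT20, 8.94 and 8.83 at ZT16, 9.74 and 9.68 at ZT12 and 8.75 and 9.07 at ZT8. Crem was also high under short days at ZT12, where both arrays stood above the remaining short-day and delay arrays, so that its dark change between ZT8 and ZT12 enters the difference. Crem differed by 1.57 ± 0.30 (2.98-fold, adjusted p = 0.0162). Without the short-day arrays it was 0.64 ± 0.21 (adjusted p = 0.303). Its other probe sets gave 1.64 at a similar level, and 0.50 and 0.16 at low levels. Of 13 CREB pathway genes measured 1 passed, Crem itself. Among 26 immediate early genes 0 passed, and 4 had an unadjusted p under 0.05, with Gem, a small GTP-binding protein gene, at 1.05 ± 0.39 (adjusted p = 0.408).

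Secreted and membrane proteins formed a further group. Hhip, which encodes an inhibitor that binds hedgehog ligands, read 9.70 and 9.82 on the advance ZT20 arrays and 8.18 and 8.36 on the advance ZT16 arrays, and 8.83 and 8.37 at delay ZT12 and 8.19 and 8.44 at delay ZT8. For Hhip, short-day arrays read 7.52 and 7.70 at ZT20, 7.88 and 7.87 at ZT16, 8.42 and 8.04 at ZT12 and 7.79 and 7.90 at ZT8. Its 2 advance ZT20 arrays were above all others, and its short-day arrays were lower at ZT20 than at ZT16 and higher at ZT12 than at ZT8. Hhip differed by 1.86 ± 0.29 (3.62-fold, adjusted p = 0.002), and the other 3 probe sets gave 1.69, 1.84 and 2.59. Of 14 hedgehog genes measured Hhip was the 1 that passed.

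Fst, the gene of the activin-binding protein follistatin, read 8.54 and 10.17 on the advance ZT20 arrays and 6.84 and 6.57 on the advance ZT16 arrays, and 6.28 and 6.21 at delay ZT12 and 6.28 and 6.52 at delay ZT8. For Fst, short-day arrays read 6.98 and 6.73 at ZT20, 6.27 and 5.96 at ZT16, 6.29 and 6.10 at ZT12 and 5.83 and 5.79 at ZT8. The advance ZT20 arrays were both above the rest, but their SD of 1.15 was the largest of any of the 29 genes at that time. Fst differed by 2.45 ± 0.54 (5.46-fold, adjusted p = 0.0437), with 1.44 from replicate 1 alone and 3.45 from replicate 2 alone. Fst passed in 1 of 16 fits that each left out 1 array, with an adjusted p of up to 0.318 over all settings. Its second probe set gave 1.36. Of 17 activin and follistatin genes measured 1 passed.

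Trhr, the receptor for thyrotropin-releasing hormone on pituitary thyrotrophs, read 9.63 and 9.66 on the advance ZT20 arrays and 8.65 and 8.58 on the advance ZT16 arrays, and 8.98 and 8.95 at delay ZT12 and 8.76 and 8.84 at delay ZT8. For Trhr, short-day arrays read 8.38 and 8.20 at ZT20, 8.24 and 8.18 at ZT16, 8.55 and 8.79 at ZT12 and 8.11 and 8.32 at ZT8. The Trhr level was highest at advance ZT20, and delay ZT12 came next. Trhr differed by 1.24 ± 0.26 (2.37-fold, adjusted p = 0.0347). Its second, dimmer probe set gave 0.28, and averaged over both Trhr did not pass (0.76, adjusted p = 0.0572). Of 12 thyrotroph receptor genes measured 1 passed, and Trhr was that gene.

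Cldn7 read 10.27 and 10.72 on the advance ZT20 arrays and 9.02 and 8.85 on the advance ZT16 arrays, and 9.15 and 9.11 at delay ZT12 and 8.76 and 9.23 at delay ZT8. For Cldn7, short-day arrays read 8.57 and 8.49 at ZT20, 8.37 and 8.56 at ZT16, 8.88 and 8.59 at ZT12 and 7.60 and 8.52 at ZT8. Its lowest array was 1 of the 2 short-day ZT8 arrays, which stood apart from its partner. Cldn7 differed by 2.02 ± 0.39 (4.07-fold, adjusted p = 0.018). Nrp2 had a difference of 0.83 ± 0.17 (adjusted p = 0.0282). Its other probe sets gave 1.05, 0.47 and -0.04, and averaged over all 4 Nrp2 did not pass (0.58, adjusted p = 0.214). For Tnfrsf12a, a receptor of the tumour necrosis factor family, it was 1.06 ± 0.23 (adjusted p = 0.0437), with 1.45 at its second probe set.

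Dram1, a lysosomal regulator of autophagy, read 9.60 and 9.61 on the advance ZT20 arrays and 8.14 and 8.03 on the advance ZT16 arrays, and 8.47 and 8.29 at delay ZT12 and 8.15 and 8.32 at delay ZT8. For Dram1, short-day arrays read 7.98 and 8.01 at ZT20, 8.01 and 7.97 at ZT16, 8.55 and 8.25 at ZT12 and 7.86 and 8.07 at ZT8. The 2 advance ZT20 arrays were nearly equal and stood above all others. Dram1 had the smallest p of all genes (log2 1.79 ± 0.22, 3.47-fold, adjusted p = 4.26e-05). Srxn1, the sulfiredoxin that repairs oxidised peroxiredoxins, read 9.82 and 10.44 on the advance ZT20 arrays and 8.43 and 8.51 on the advance ZT16 arrays, and 8.54 and 8.39 at delay ZT12 and 8.52 and 8.20 at delay ZT8. For Srxn1, short-day arrays read 8.89 and 8.81 at ZT20, 8.72 and 8.81 at ZT16, 8.86 and 8.62 at ZT12 and 8.75 and 8.64 at ZT8. Outside advance ZT20 its arrays lay between 8.20 and 8.89, below both advance ZT20 arrays. Srxn1 differed by 1.52 ± 0.29 (2.87-fold, adjusted p = 0.0176). Its other probe sets gave 1.16, 1.07 and 0.14, and averaged over all 4 Srxn1 did not pass (0.97, adjusted p = 0.164). Man2a1, a Golgi mannosidase, had a difference of 1.33 ± 0.27 (adjusted p = 0.0228). Dhrs3, a retinal reductase, had one of 1.13 ± 0.23 (adjusted p = 0.024). In these genes too the advance ZT20 arrays were the highest of the 16. Emd, the nuclear membrane protein emerin, had 0.85 ± 0.18 (adjusted p = 0.0347). Gm26911, a gene with a model name and no role given in the sources used here, had 1.74 ± 0.29 (adjusted p = 0.00342) at a low mean level of 4.83.

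**Figure D2:**
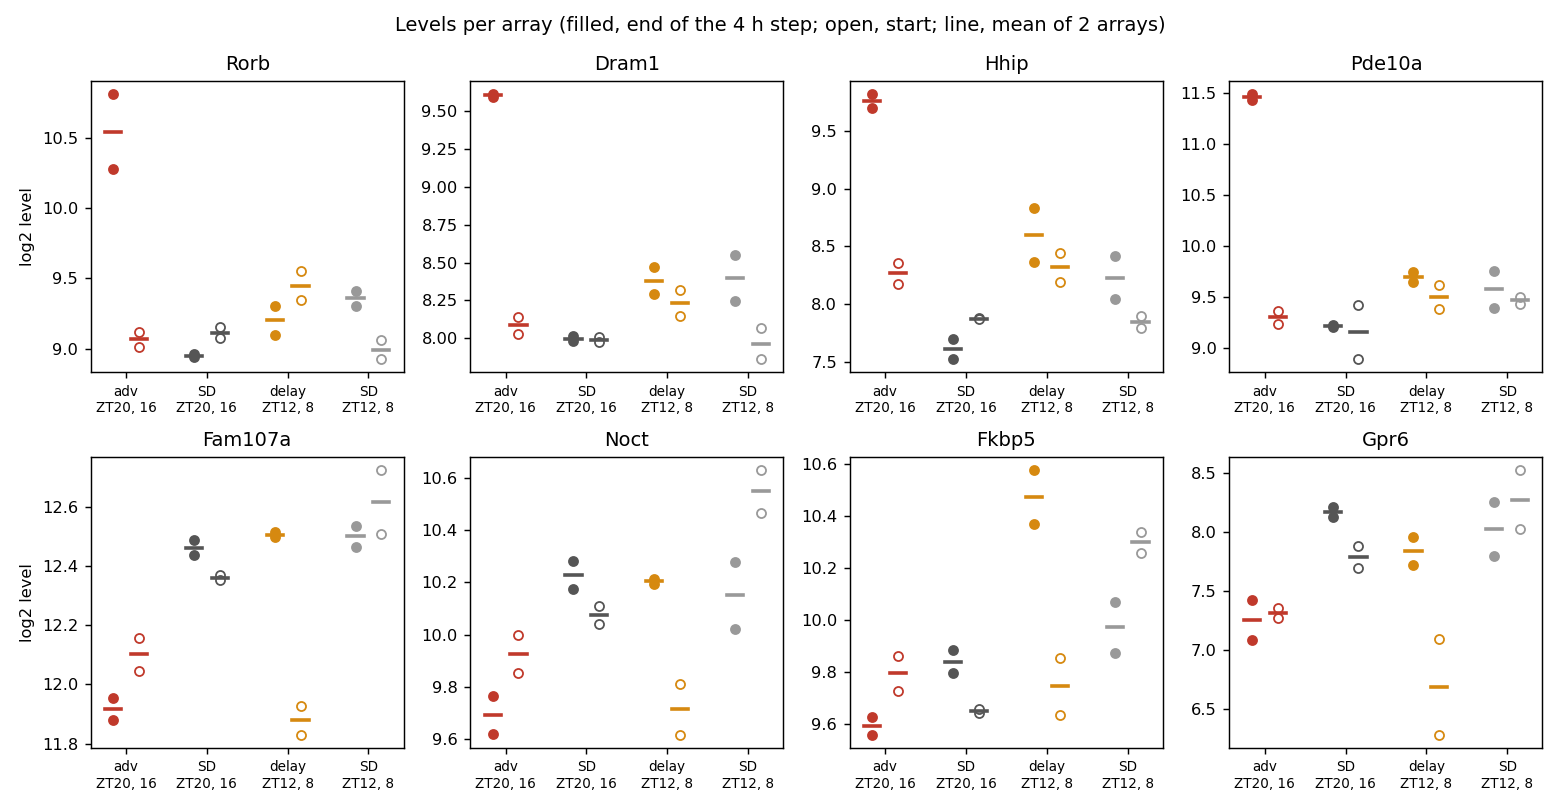
Log2 levels on each of the 16 arrays for 4 higher genes (top) and 4 lower genes (bottom), with the lit step left of the short-day step at the same times, filled points for the end and open points for the start of each 4 h step, and lines for means of 2 arrays. In the top row both advance ZT20 arrays stand above the rest. For all 4 genes of the bottom row (Fam107a, Noct, Fkbp5 and Gpr6) the delay ZT8 arrays lie below delay ZT12 and below short-day ZT8.

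The 14 lower genes had a different make-up. Each of the 14 had a late-night response below 0 (64.2% of all genes) and an evening response above 0 (60.7%), and 9 passed in neither alone. Of the 14, 1 passed late in the night (Thrsp, 7 lower calls in all, 0.0385%) and 4 of 14 in the evening (Fam107a, Noct, Fkbp5 and Gpr6). The differences ran from 1.82-fold to 3.59-fold, with a median of -1.19. Both advance ZT20 arrays lay below the other 14 arrays for 8 of the 14 genes (4.28% of all genes). Within advance, both ZT20 arrays lay below both ZT16 arrays for 13 of 14 (27% of all genes). Within delay, both ZT12 arrays lay above both ZT8 arrays for 12 of 14 (26.7%). Before the extra light, at ZT16 in advance minus short days against ZT8 in delay minus short days, 13 of 14 already stood higher (54.5% of all genes) and 2 passed (0.0989%), Zfp418 and Rab3ip. That starting difference was larger in size than the difference at the end of the 4 h for 5 of the 14 (Gpr6, Noct, Rab3ip, Zfp418 and 1500009L16Rik). The starting arrays and both responses enter the difference that chose these genes, so these counts too are a description and not a separate test.

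The lower genes include 2 of the 18 glucocorticoid-responsive genes listed, Fam107a and Fkbp5. Fam107a, an actin-binding stress protein gene induced by glucocorticoids, read 11.88 and 11.96 on the advance ZT20 arrays and 12.05 and 12.16 on the advance ZT16 arrays, and 12.51 and 12.50 at delay ZT12 and 11.93 and 11.83 at delay ZT8. For Fam107a, short-day arrays read 12.49 and 12.44 at ZT20, 12.37 and 12.35 at ZT16, 12.46 and 12.53 at ZT12 and 12.72 and 12.51 at ZT8. The delay ZT8 arrays overlapped with the advance ZT20 arrays at the low end, and both short-day ZT8 arrays lay above them. Fam107a differed by -1.03 ± 0.17 (2.04-fold lower, adjusted p = 0.00256), with -0.28 ± 0.12 late in the night and 0.74 ± 0.12 in the evening (adjusted p = 0.00855). Delay and short-day means for Fam107a were 11.88 and 12.62 at ZT8, before the extra light, and 12.51 and 12.50 at ZT12. The evening value of Fam107a thus lies in the ZT8 arrays, and delay and short days were nearly equal after the 4 h. Its other probe sets gave -1.02 and -1.35.

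Fkbp5, a co-chaperone of the glucocorticoid receptor and itself a target of it, read 9.56 and 9.63 on the advance ZT20 arrays and 9.86 and 9.73 on the advance ZT16 arrays, and 10.58 and 10.37 at delay ZT12 and 9.86 and 9.64 at delay ZT8. For Fkbp5, short-day arrays read 9.89 and 9.80 at ZT20, 9.64 and 9.66 at ZT16, 10.07 and 9.87 at ZT12 and 10.34 and 10.26 at ZT8. The delay ZT12 arrays were the highest of the 16 and the advance ZT20 arrays the lowest. Fkbp5 differed by -1.45 ± 0.28 (2.73-fold lower, adjusted p = 0.018), and its 2 other probe sets gave -0.36 and -0.18. Averaged over probe sets Fkbp5 did not pass (adjusted p = 0.376). At the probe set used its evening response was 1.06 (adjusted p = 0.031 in limma). Delay and short-day means for Fkbp5 were 9.75 and 10.30 at ZT8, before the extra light, and 10.48 and 9.97 at ZT12. The evening value of Fkbp5 thus lies in both the ZT8 and the ZT12 arrays.

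All 18 glucocorticoid-responsive genes measured had a difference below 0, against 64.8% of all genes, with a median of -0.50 against -0.11. With arrays centred on their medians 15 of 18 were below 0, against 46.3% of all genes, with a median of -0.36 against 0.02. Of the 18, 2 passed (Fkbp5 and Fam107a) and 7 had an unadjusted p under 0.05. The list was chosen with earlier results of these data known. Fam107a and Fkbp5 were also among the evening light genes of an earlier account. These shares therefore describe the list and are not a separate test. Zbtb16, a zinc finger factor on this list, read 8.33 and 8.40 on the advance ZT20 arrays and 8.91 and 8.91 on the advance ZT16 arrays, and 9.56 and 9.59 at delay ZT12 and 8.56 and 8.23 at delay ZT8. For Zbtb16, short-day arrays read 8.20 and 8.37 at ZT20, 8.39 and 8.13 at ZT16, 8.94 and 9.06 at ZT12 and 9.32 and 9.41 at ZT8. Its delay ZT12 arrays were the highest, and its short-day ZT8 arrays came next. Zbtb16 missed the threshold at -2.11 ± 0.48 (adjusted p = 0.0581), but passed with its probe sets averaged (-1.89, adjusted p = 0.0465). Tsc22d3, another glucocorticoid target, had -0.91 ± 0.28 (adjusted p = 0.3). Glucocorticoid itself was not measured.

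Noct, the rhythmic gene of nocturnin, read 9.62 and 9.77 on the advance ZT20 arrays and 9.85 and 9.999 on the advance ZT16 arrays, and 10.21 and 10.19 at delay ZT12 and 9.81 and 9.62 at delay ZT8. For Noct, short-day arrays read 10.28 and 10.18 at ZT20, 10.04 and 10.11 at ZT16, 10.02 and 10.28 at ZT12 and 10.63 and 10.47 at ZT8. The advance ZT20 arrays and the delay ZT8 arrays overlapped at the low end, and the short-day ZT8 arrays were the highest. Its difference was -1.28 ± 0.23 (2.43-fold lower, adjusted p = 0.00603), with an evening response of 0.89 ± 0.16 (adjusted p = 0.031). Delay and short-day means for Noct were 9.71 and 10.55 at ZT8, before the extra light, and 10.20 and 10.15 at ZT12. The evening value of Noct thus lies mostly in the ZT8 arrays. Of 24 clock genes measured 1 was higher (Rorb) and 1 lower (Noct), and 8 had an unadjusted p under 0.05. The core repressor Per1 had a difference of -0.66 ± 0.34 (adjusted p = 0.489), and its relative Per2 one of -0.79 ± 0.29 (adjusted p = 0.408). The clock output factor Dbp had -1.09 ± 0.48 (adjusted p = 0.452), and 0.77 without the short-day arrays (adjusted p = 0.64). None of these core genes passed the difference, and neither did the activator Arntl at 0.44 ± 0.31 (adjusted p = 0.621). The repressor Nr1d1 had 0.42 ± 0.26 (adjusted p = 0.574). Tef, an output factor that also acts on Tshb, had -0.61 ± 0.22 (adjusted p = 0.408).

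Gpr6, an orphan receptor that raises cyclic AMP, read 7.08 and 7.42 on the advance ZT20 arrays and 7.27 and 7.36 on the advance ZT16 arrays, and 7.72 and 7.95 at delay ZT12 and 7.09 and 6.28 at delay ZT8. For Gpr6, short-day arrays read 8.12 and 8.21 at ZT20, 7.88 and 7.69 at ZT16, 7.79 and 8.26 at ZT12 and 8.53 and 8.02 at ZT8. The delay ZT8 arrays held the lowest value, overlapped with the advance ZT20 arrays and lay below both short-day ZT8 arrays. Gpr6 differed by -1.84 ± 0.40 (3.59-fold lower, adjusted p = 0.0378), with an evening response of 1.40 ± 0.28 (adjusted p = 0.0489). Delay and short-day means for Gpr6 were 6.69 and 8.27 at ZT8, before the extra light, and 7.84 and 8.03 at ZT12. After the 4 h the delay mean was thus still below the short-day mean.

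Thrsp, a lipogenic gene responsive to thyroid hormone, read 10.10 and 10.08 on the advance ZT20 arrays and 10.77 and 10.82 on the advance ZT16 arrays, and 11.17 and 11.31 at delay ZT12 and 11.17 and 11.14 at delay ZT8. For Thrsp, short-day arrays read 11.55 and 11.55 at ZT20, 11.39 and 11.49 at ZT16, 11.41 and 11.28 at ZT12 and 11.79 and 11.51 at ZT8. The advance ZT20 arrays were the lowest of the 16, with advance ZT16 next. Its late-night response was -0.82 ± 0.14 (adjusted p = 0.00132). Thrsp differed by -1.21 ± 0.20 (2.32-fold lower, adjusted p = 0.00235), and its other probe sets gave -0.53 and -0.17.

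Fgf18, a fibroblast growth factor gene, read 5.78 and 5.75 on the advance ZT20 arrays and 6.68 and 6.68 on the advance ZT16 arrays, and 7.13 and 6.99 at delay ZT12 and 6.95 and 6.71 at delay ZT8. For Fgf18, short-day arrays read 7.20 and 6.98 at ZT20, 7.11 and 6.94 at ZT16, 6.77 and 6.73 at ZT12 and 7.47 and 7.29 at ZT8. The 2 advance ZT20 arrays were the lowest of the 16, with a gap to all others. Fgf18 differed by -1.84 ± 0.36 (3.58-fold lower, adjusted p = 0.0205). Kcnk3, a background potassium channel, had a difference of -1.32 ± 0.27 (adjusted p = 0.0282), with 0.05 and -0.10 at its 2 dimmer probe sets, and did not pass with these averaged (-0.46, adjusted p = 0.569). Its advance ZT20 arrays were also the lowest of the 16.

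Nrgn, a calmodulin-binding protein of neurons, had a difference of -1.17 ± 0.25 (adjusted p = 0.0347). Actn1, an actin crosslinker, had one of -0.86 ± 0.19 (adjusted p = 0.0437), with -0.80 and -0.15 at its dimmer probe sets, and did not pass with these averaged (-0.61, adjusted p = 0.169). Rab3ip, an exchange factor for small GTPases of the Rab family, had one of -0.86 ± 0.17 (adjusted p = 0.018), and its advance ZT20 arrays lay within the range of the others. Its second probe set gave -0.32, and averaged over both Rab3ip did not pass (-0.59, adjusted p = 0.164). Cracdl, Kctd14, Zfp418 and 1500009L16Rik completed the set, between -1.41 for Zfp418 and -0.88 for 1500009L16Rik. Other probe sets of Kctd14 gave -0.69 to -1.27. The second probe set of 1500009L16Rik gave -0.10, and averaged over both it did not pass (-0.49, adjusted p = 0.449).

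**Figure D3:**
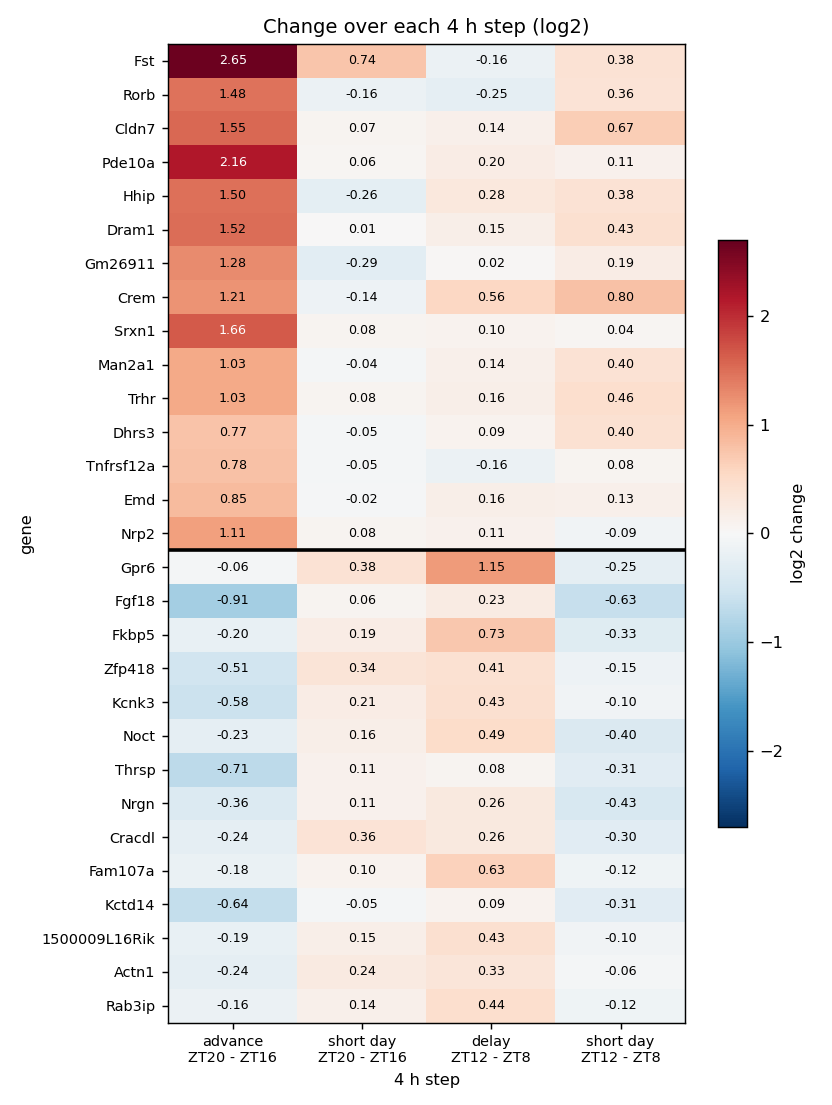
Change in log2 level over each 4 h step (columns) for the 29 genes (rows, higher genes above the line), with red for a rise and blue for a fall. The upper block is darkest in the advance step, at 2.65 for Fst and 2.16 for Pde10a, and the lower block combines falls or small changes in advance with rises in delay, such as 1.15 for Gpr6.

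In each of the 12 lists of cell type markers 0 genes passed. The pars tuberalis markers Cga and Chga averaged 13.8 over the 16 arrays and Tshb 11.3, and 0 of 6 such markers passed. Of 15 hypothalamic neuron markers measured 0 passed and 12 were below 0 (64.8% of all genes), with a median of -0.42. With arrays centred 9 were below 0 with a median of -0.28, and with quantile normalization repeated 9 with a median of -0.18. The log2 of their summed level was 14.95 on both advance ZT20 arrays, 14.80 and 15.20 at advance ZT16, 14.98 and 15.004 at delay ZT12, and 14.92 and 14.96 at delay ZT8. In short-day arrays the sum lay between 15.30 and 15.35 at ZT20, 15.20 and 15.25 at ZT16, 15.21 and 15.30 at ZT12, and 15.24 and 15.58 at ZT8, which makes a difference of -0.36. The part of neuronal tissue in the punch in the lower values, and in Nrgn in particular, was not tested. In such bulk samples fewer cells of a type and less RNA per cell cannot be told apart. All 8 ependymal markers were below 0 under each scaling, with a median of -0.36 as deposited, -0.23 with arrays centred and -0.29 with quantile normalization repeated, and their summed level differed by -0.41. Choroid plexus markers differed by -1.15 in summed level, with 1 short-day ZT20 array at 14.20 and the other 15 arrays between 10.89 and 12.55. Of 35 complex I genes measured 0 passed and all were below 0 (64.8% of all genes), with a median of -0.39, and 17 had an unadjusted p under 0.05 (10.4% of all genes). With arrays centred 33 were below 0, the median was -0.26 and 5 had an unadjusted p under 0.05, and with quantile normalization repeated it was 32, -0.23 and 4. The 3′ minus 5′ actin signal, a measure of RNA integrity, differed by -0.21, and with it as a covariate 18 genes passed, all among the 29.

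Of the genes of the long-day response, Eya3, Dio2 and Tshb did not pass the difference at the probe set used, and Dio2 passed with its probe sets averaged. Eya3 read 10.59 and 11.06 on the advance ZT20 arrays and 9.01 and 9.15 on the advance ZT16 arrays, and 9.33 and 9.30 at delay ZT12 and 8.98 and 8.95 at delay ZT8. For Eya3, short-day arrays read 9.30 and 9.21 at ZT20, 9.01 and 9.24 at ZT16, 9.43 and 9.17 at ZT12 and 9.17 and 9.13 at ZT8. Its 2 advance ZT20 arrays were above the other 14. Eya3 rose late in the night (1.62 ± 0.26, adjusted p = 0.000685), its evening response was 0.19 ± 0.26, and the difference of 1.42 ± 0.37 did not pass (adjusted p = 0.147). Its other probe sets gave 1.68, 0.28 and 0.04. Without the short-day arrays Eya3 passed (1.40, adjusted p = 0.00303). Dio2 read 13.72 and 13.88 on the advance ZT20 arrays and 12.67 and 12.79 on the advance ZT16 arrays, and 13.27 and 12.95 at delay ZT12 and 12.22 and 12.56 at delay ZT8. For Dio2, short-day arrays read 12.32 and 12.31 at ZT20, 12.31 and 12.34 at ZT16, 13.28 and 12.97 at ZT12 and 12.45 and 12.67 at ZT8. The advance ZT20 arrays again stood above the other 14, with delay ZT12 and short-day ZT12 next and overlapping. Dio2 differed by 0.92 ± 0.28 (adjusted p = 0.3) at its brightest probe set. Its other 2 probe sets gave 2.13, with an evening response of -0.39, and 1.67, with an evening response of -0.32. Averaged over the 3 probe sets Dio2 passed (1.57, adjusted p = 0.0288). Without the short-day arrays its brightest probe set gave 0.34 (adjusted p = 0.859). Slco1c1, a thyroid hormone transporter, had a difference of 1.25 ± 0.36 (adjusted p = 0.277). Tshb had a late-night response of 0.30 ± 0.55 and an evening response of 0.21 ± 0.55, with a difference of 0.09 ± 0.78 (adjusted p = 0.979). The SE of 0.78 is large beside this value. Cga had a difference of 0.23 ± 0.28 (adjusted p = 0.8). Mtnr1a, the melatonin receptor, had one of 1.11 ± 0.80 (adjusted p = 0.629). Of 11 thyrotropin and photoperiod genes, 11 thyroid hormone handling genes and 23 melatonin receptor and cyclic AMP signalling genes measured, 0 passed in each list, with 4 at an unadjusted p under 0.05 in each. Among 20 endoplasmic reticulum folding genes 0 passed, with 13 above 0 (35.2% of all genes) and a median of 0.11, and with 17 above 0 and medians of 0.24 and 0.25 under the other 2 scalings. Of 23 potassium channel subunit genes, a list without Kcnk3, 0 passed, with 20 below 0 (64.8% of all genes) and a median of -0.23, and with 15 below 0 and a median of -0.10 under both other scalings. The 11 genes of the eyes absent family and its partner families, 14 secretory granule genes, 11 MAP kinase phosphatase genes and 9 heat shock and cold inducible genes measured had 0 passing in each. Their medians lay between -0.12 and -0.03 as deposited, beside -0.11 over all genes, and all 4 were above 0 under both other scalings. Of 10 vascular endothelial growth factor ligand, receptor and neuropilin genes 1 passed, Nrp2.

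No gene passed both responses, of which the late-night one called 0.22% of all genes and the evening one 0.0385%. With lists this short, the lack of shared genes says little about whether the responses are separate. Of the 40 genes of the late-night response 16 also passed the difference, and of the 7 of the evening response 4 did, so that 24 and 3 genes passed 1 response without a shown difference from the other. Of those 24, 23 had an unadjusted p under 0.05 for the difference (10.4% of all genes). The late-night response that chose them is part of the difference, so this count is not a separate test. The nearest to the threshold was Klhl41, a kelch protein gene, at -1.37 ± 0.31 (adjusted p = 0.0503), with -1.44 ± 0.22 late in the night. Vegfd, a lymphatic growth factor gene, fell late in the night (-1.73 ± 0.25, adjusted p = 0.000143) and had an evening response of -1.08 ± 0.25 that did not pass (adjusted p = 0.164). Its difference of -0.64 ± 0.35 did not pass either (adjusted p = 0.514). Cables1, a regulator of cyclin-dependent kinases, passed in the evening at 0.96 ± 0.19 without passing the difference (-0.98 ± 0.27, adjusted p = 0.238).

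After 8 h of light none of the higher genes passed, while the lower genes kept their sign. The same contrast was taken at ZT0 in advance and ZT16 in delay, with the same starting arrays. Over these 8 h the late-night response called 0 genes. The evening response over 8 h called 200 genes (1.1%), 146 higher (0.802%) and 54 lower (0.297%). The contrast between these responses called 33 genes, 6 higher (0.033%) and 27 lower (0.148%). Of the 15 higher genes 0 passed, 7 kept their sign (40.4% of all genes lay above 0) and all were smaller than at 4 h, with a median near 0 (0.00) and a range of -1.19 for Pde10a to 0.97 for Cldn7. The 14 lower genes all kept their sign (59.6% of all genes lay below 0) and 4 passed. Lowest in p was 1500009L16Rik (-1.44 ± 0.21, adjusted p = 0.000987), followed by Fam107a (-1.21 ± 0.19, adjusted p = 0.00167). Cracdl (-1.37 ± 0.28, adjusted p = 0.022) and Zfp418 (-1.50 ± 0.34, adjusted p = 0.0499) were the others. The median over the 14 was -0.95 at 8 h and -1.19 at 4 h. Because the starting arrays are shared, the values at 4 h and 8 h are not independent. Per2 was at -1.79 ± 0.32 after 8 h (adjusted p = 0.0132).

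**Figure D4:**
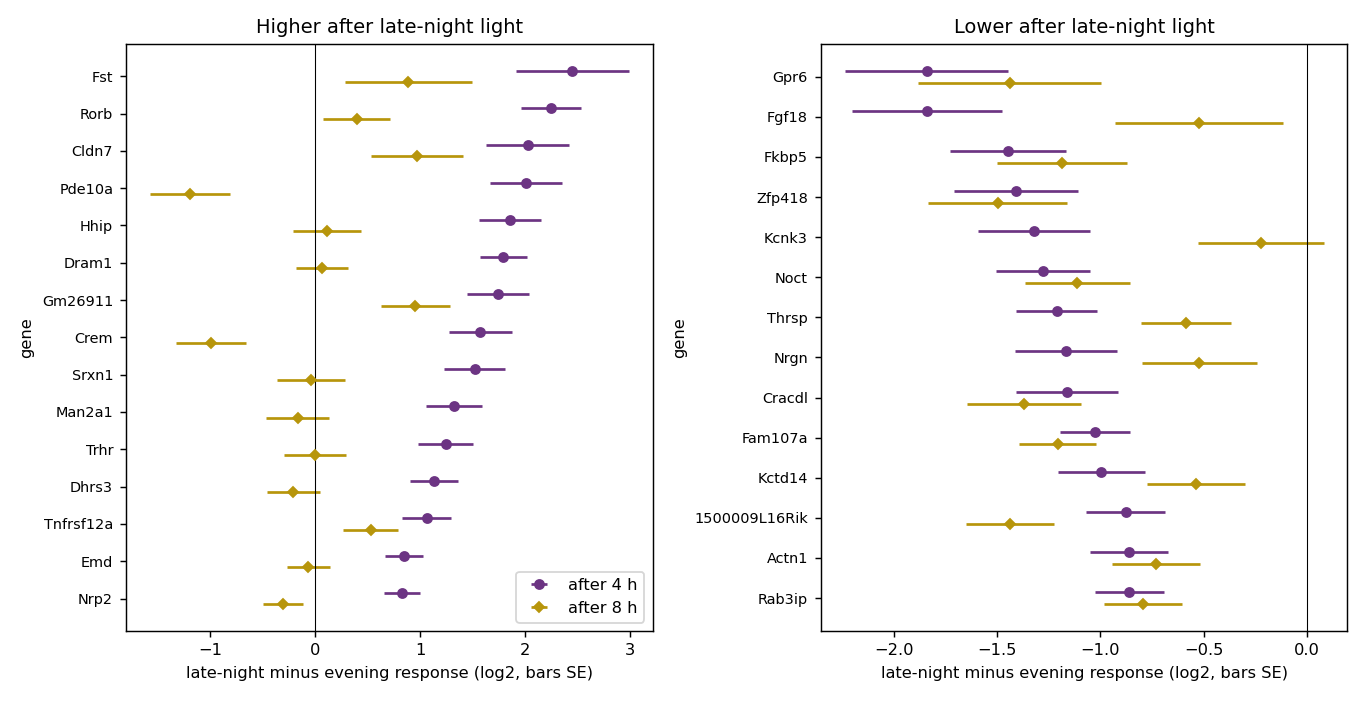
The late-night minus evening difference (log2, bars SE) after 4 h (circles) and 8 h (diamonds) of light for the 15 higher genes (left) and the 14 lower genes (right). The 8 h values of the higher genes scatter between -1.19 and 0.97, and those of the lower genes all lie below 0, between -1.50 and -0.22.

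Later on the advance day some of the higher genes came up again. Hhip averaged 8.27 ± 0.13 at ZT16 and 9.76 ± 0.08 at ZT20 (SD, n = 2 arrays). It then stood at 8.49 ± 0.22 and 8.49 ± 0.15 in the next pair of groups, ZT0 and ZT4, and at 9.48 ± 0.02 and 9.36 ± 0.17 in the last pair, ZT8 and ZT12. Dram1 averaged 8.31 ± 0.08 at ZT0, stood at 8.67 and 9.12 at the 2 times between, and reached 9.24 ± 0.08 at ZT12. Srxn1, in contrast, averaged 10.13 ± 0.44 at ZT20 and lay between 8.46 and 8.71 at these later times. After 2 weeks of long days Hhip was between 8.84 and 9.22 at all 6 times, above its short-day range of 7.61 to 8.23, whereas Rorb was between 9.33 and 9.56, against 8.95 to 9.36 under short days. These levels are described without a test.

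**Figure D5:**
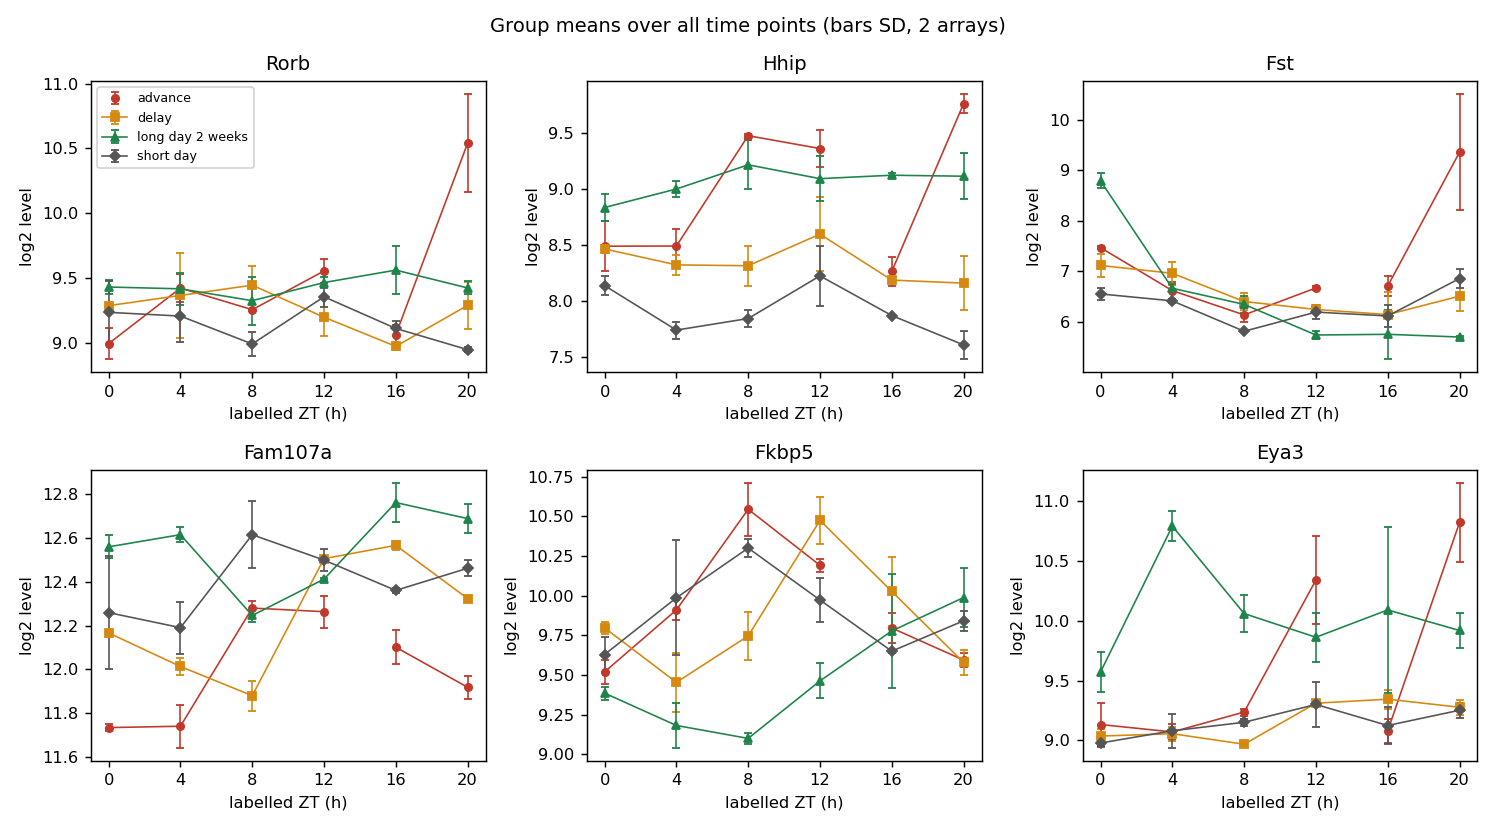
Group means of log2 level (bars SD, 2 arrays) at all 6 labelled times in advance, delay, 2 weeks of long days and short days for 6 genes. In advance the line is broken because ZT16 and ZT20 precede ZT0 to ZT12, and its point at ZT20 is the highest of all groups for Rorb, Hhip, Fst and Eya3.

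Taken apart by the light and dark steps, most of the 29 genes passed on the advance and delay arrays alone. That comparison sets late night against evening without a dark control. With the change in advance minus the change in delay alone, without the short-day arrays, 14 of the 15 higher genes passed (0.22% of all genes higher), Crem being the exception, and all 15 kept their sign (35.8% of all genes above 0). Of the 14 lower genes 12 passed (0.297% of all genes lower) and all kept their sign (64.2% below 0). The short-day part, the change between ZT16 and ZT20 minus that between ZT8 and ZT12, passed for 0 of 15 and 0 of 14 (0.0769% of all genes in either direction). It was below 0 for 12 of the 15 higher genes (41.1% of all genes) and above 0 for all 14 lower genes (58.9%). Because this part is subtracted, it adds to the size of the difference in those genes. Of the 14 lower genes, 10 had their highest short-day mean at ZT8, over all 6 short-day times (11.1% of all genes). With the arrays at the end of the 4 h alone, 15 of 15 higher genes passed (0.687%) and 10 of 14 lower genes (1.78%). All these parts are made of the arrays of the difference that chose the 29 genes. The counts therefore describe the genes and are not a separate test.

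How many genes passed depended on single arrays. The 29 became 111 without short-day ZT16 replicate 1, 10 without short-day ZT8 replicate 1 or short-day ZT16 replicate 2, 11 without advance ZT16 replicate 1, 13 without advance ZT20 replicate 2 or delay ZT12 replicate 1, 14 without short-day ZT12 replicate 1, advance ZT16 replicate 2, delay ZT8 replicate 2 or delay ZT12 replicate 2, 16 without short-day ZT20 replicate 1 and 18 without short-day ZT12 replicate 2. The late-night count of 40 became 334 without short-day ZT16 replicate 1, 26 without short-day ZT20 replicate 2, 21 without advance ZT16 replicate 2 and 18 without advance ZT20 replicate 2. The evening count of 7 became 0 without short-day ZT8 replicate 1, short-day ZT12 replicate 1, delay ZT8 replicate 2 or delay ZT12 replicate 1, 3 without short-day ZT12 replicate 2 and 4 without delay ZT8 replicate 1. The count of 33 at 8 h became 886 without short-day ZT16 replicate 1, 92 without short-day ZT0 replicate 1, 77 without delay ZT8 replicate 1 and 7 to 18 without short-day ZT0 replicate 2, short-day ZT8 replicate 1, short-day ZT16 replicate 2, advance ZT16 replicate 2, advance ZT0 replicate 2, delay ZT8 replicate 2 or delay ZT16 replicate 1. Dram1, Rorb, Hhip, Pde10a, Gm26911, Fam107a and Noct passed in each of the 16 fits without 1 array and in each other setting run that kept the contrast, and Thrsp in each of the 16 but not with probe sets averaged (-0.64, adjusted p = 0.353). The other 21 genes each failed to pass in at least 4 of the 16.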

How the data were processed

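Each of the 48 arrays measured 1 pool of pars tuberalis punches. The deposited values are log2 intensities after RMA, made by the authors in R 2.8.0, per the submitters' processing notes. RMA quantile-normalizes arrays together, which hides shifts in total RNA and compresses low levels, and array medians lay between 6.975 and 7.026. Depth is not counted on arrays, so 2 arrays per group limit the precision.

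Of 45101 probe sets, 34958 had 1 gene symbol in the platform annotation, 932 several and 9211 none, and 34754 were matched to RefSeq. The probe set with the highest mean stood for each of 18194 genes (9012 had more than 1), with no filter on low levels. Values of other probe sets are given beside each of the 29 genes that has them. A model of 24 group means was fitted to all arrays with limma 3.58.1 in R 4.3.3 (empirical Bayes with trend), and contrasts were adjusted over all genes by Benjamini-Hochberg with a threshold of 0.05. SE comes from this fit. Figures were drawn with matplotlib 3.10.9.

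The text names up to 15 genes in each direction by size among those past the threshold, passing over clone and model names without a gene name, and fixed genes of the thyrotropin pathway and the clock and up to 4 members per list by p. Gm26911 and 1500009L16Rik, which that rule passes over, were named after their values were seen so that all 29 genes are accounted for. The comparison, members and lists were chosen with earlier results of these data known. Alternatives covered the arrays fitted, replicate number, probe sets, dim genes, variance model, array weights, scaling, actin signal, baselines and single arrays. Arrays with the same replicate number were not paired in the main fit. Their deviations correlated above 0.1 in 5 of 28 pairs of groups (r from -0.29 to 0.32, median 0.02). A replicate block nevertheless raised the count of the difference from 29 to 44 genes, so some shared spread by replicate number remains possible.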

Additional observations from a re-analysis of the deposited data

Results flagged for a closer look

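In 10 genes the light response differed between late night and evening by the test of that difference in limma, and these are the 5 largest in each direction among the 29. On the log2 scale, late-night minus evening, Fst had 2.45, Rorb 2.25, Cldn7 2.02, Pde10a 2.01 and Hhip 1.86. On the lower side Gpr6 had -1.84, Fgf18 -1.84, Fkbp5 -1.45, Zfp418 -1.41 and Kcnk3 -1.32. For Fst the size came to 1.44 with replicate 1 alone and 3.45 with replicate 2 alone, and for Fkbp5 and Kcnk3 the other probe sets gave values between -0.36 and 0.05. When 1 array was left out, Rorb, Pde10a and Hhip passed in all 16 fits, Fkbp5 and Cldn7 in 9, Kcnk3 in 7 and Fgf18 in 6. Gpr6 passed in 5 of the 16, Zfp418 in 3 and Fst in 1. Zfp418 also differed before the extra light by the same test. For Gpr6 and Zfp418 the difference before the extra light was larger in size than that at the end of the 4 h.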

How the results depend on the processing

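The 29 genes of the difference became 15 with only the 16 arrays fitted, 18 with the actin signal as a covariate, 94 without the short-day arrays, 449 without the baselines before the extra light and 10 to 111 when 1 array was left out. In 7 other settings, which included probe sets averaged (22, of which 18 were among the 29) and array weights (32), the count stayed within 1.5 times. The late-night count of 40 became 23 with the 16 arrays alone and 18 to 334 when 1 array was left out. The evening count of 7 became 3 with probe sets averaged, 1 without the trend, 2 with quantile normalization repeated and 0 to 6 when 1 array was left out. The change in advance minus that in delay called 94 genes, against 60 with the 16 arrays, 218 with array weights and 42 to 90 when 1 array was left out. The short-day part called 14, against 9 with the 16 arrays, 9 without the trend, 6 with array weights and 6 to 378 when 1 array was left out. The 33 genes at 8 h became 3 with array weights, 4 with the actin covariate and 7 to 886 when 1 array was left out. A replicate block raised the difference to 44 genes and the 8 h count to 70. A replicate block in each condition gave 45 genes for the difference, 11 for the evening response, 31 for the short-day part and 132 at 8 h, and all 29 genes were among the 44 and the 45. Over 60 single-gene results and 1857 alternatives, 15 values changed sign. Without the short-day arrays these were Dbp (0.77) and Gata2 (0.39), and without the baselines Nr1d1 (-0.70) and Tshb (-0.077). Tshb also turned with the actin covariate (-0.014), with replicate number 1 alone (-0.48) and when 1 array was left out (-0.50 to 0.68), as did Cga in that last setting (-0.051 to 0.52). The causes were not tested.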
